A study of Mus musculus with 4 samples.

Results

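Leukocyte adhesion and transmigration molecules were described by 10 genes, taken as the rows of the raw count table with those symbols, out of 38355 genes in the table. All 10 had a row. They comprised 5 ligands displayed by endothelium, namely the selectins Sele and Selp and the immunoglobulin-type ligands Vcam1, Icam1 and Icam2, and 5 counter-receptors carried by leukocytes, namely Selplg and the integrin subunits Itgal, Itgam, Itga4 and Itgb2. RNA was taken from the free wall of the left ventricle in 4 untreated mice of the same parents, 1 library per mouse. WT 1 was a wild-type male of 35 weeks and WT 2 a wild-type female of 19 weeks. TG 1 and TG 2 were a male of 35 weeks and a female of 19 weeks that carried the VSFP2.3 transgene, a voltage indicator aimed at cardiomyocytes per the series title. The study asked whether this transgene harms the heart. For the promoter, the founder line and the strain nothing is given in the sources used here, and transgene transcripts were not analysed here.

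Leukocytes leave the blood in steps. Selectins on activated endothelium catch passing cells by binding Selplg (PSGL-1), integrins on the leukocyte then bind immunoglobulin-type ligands on the vessel wall and hold the cell, and the cell crosses the wall at endothelial junctions. Itgal joins Itgb2 to form LFA-1, which binds Icam1 and Icam2. Itgam joins Itgb2 to form Mac-1, a receptor of macrophages and neutrophils that binds Icam1 and complement fragments. Itga4 joins Itgb1 to form VLA-4, which binds Vcam1. Sele, Vcam1 and Icam1 are raised on endothelium by inflammatory cytokines, whereas Icam2 is made by resting endothelium.

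The libraries held 14158440 to 16762713 counted reads. WT 2 stood apart in make-up, because the non-coding gene Yam1 took 4.09% of its counts against 0.0141 to 0.0476% in the others, and Lars2 took 0.819% against 0.00222 to 0.00503%. Levels are given as CPM, the count of a gene scaled to a common library size, on library sizes scaled by trimmed means (TMM). A count of 0 allows up to 3 counts, or 0.182 to 0.213 CPM depending on the library. Summed over 6 cardiomyocyte genes the level was 49203 to 67283 CPM, and the endothelial genes Pecam1 and Cdh5 were at 185 to 201 and 192 to 250 CPM. With 2 mice per genotype, a p-value reflects only how these 4 mice vary, with the spread of each gene moderated by that of all tested genes.

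Promoters are shown for 4 members, a pair from each side of the contact, so that inducible ligands can be read beside leukocyte integrins. RefSeq promoter entries (GRCm38.p6, the mm10 assembly) matched 5 of the 10 members. Each line gives the 250 bases before the annotated start on the plus strand, at chr1:164047984-164048233 for Sele, chr9:21015690-21015939 for Icam1, chr7:128062390-128062639 for Itgam and chr2:79255176-79255425 for Itga4. Capitals mark matches to 3 motifs, each searched on both strands. GGANNTTCC is a form of the NF-kappa-B site. TATAAA is a TATA box. GAGGAA is a purine box of the kind that ETS factors such as PU.1 bind.
Sele: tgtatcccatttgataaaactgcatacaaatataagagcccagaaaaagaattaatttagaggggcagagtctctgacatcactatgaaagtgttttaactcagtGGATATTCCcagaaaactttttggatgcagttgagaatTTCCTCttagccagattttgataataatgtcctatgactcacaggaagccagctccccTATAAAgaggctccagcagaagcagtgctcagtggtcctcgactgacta
Icam1: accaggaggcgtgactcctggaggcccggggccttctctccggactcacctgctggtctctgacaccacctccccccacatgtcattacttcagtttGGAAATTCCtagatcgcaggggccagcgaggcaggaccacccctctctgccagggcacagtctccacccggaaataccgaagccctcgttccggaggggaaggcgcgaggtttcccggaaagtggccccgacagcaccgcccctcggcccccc
Itgam: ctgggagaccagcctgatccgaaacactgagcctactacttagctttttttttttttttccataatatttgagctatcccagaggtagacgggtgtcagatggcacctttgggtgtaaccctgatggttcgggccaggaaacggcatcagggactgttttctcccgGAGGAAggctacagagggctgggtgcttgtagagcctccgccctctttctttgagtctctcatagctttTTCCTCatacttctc
Itga4: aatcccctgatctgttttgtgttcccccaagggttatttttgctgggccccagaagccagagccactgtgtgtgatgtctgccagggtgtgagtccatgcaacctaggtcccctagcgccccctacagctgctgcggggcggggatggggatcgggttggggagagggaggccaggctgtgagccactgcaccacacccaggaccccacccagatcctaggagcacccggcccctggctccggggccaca
Sele matched GGANNTTCC at 145 bases before the start and TATAAA at 49, and Icam1 matched GGANNTTCC at 153. Over all 32851 promoter entries, 3.59% held GGANNTTCC, 12.4% held TATAAA and 23.3% held GAGGAA in the same 250 bases. Itgam held GAGGAA at 84 and 15 bases before the start, Sele held it at 107, and none of the 3 motifs was found in the windows of Itga4 and Selp. GGAAATTCC in Icam1 reads as a match on both strands. These motifs were chosen with the sequences in view, and a match describes letters, not binding.

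Among the ligands, Icam2 had the highest level for its length, and Selp was close to the detection limit. Icam2 (chromosome 11, 106377656 to 106388075) was at 25.8 CPM in WT 1, 25.6 in WT 2, 26.1 in TG 1 and 23.7 in TG 2. No library stood out. Vcam1 (chromosome 3, 116109949 to 116129688) was at 39.2, 20.5, 29.3 and 38.8 CPM in the same order, and Icam1 (chromosome 9, 21015985 to 21028817) at 26.1, 19.3, 15.6 and 23.4 CPM. Both were higher in WT 1 and TG 2 than in WT 2 and TG 1, so the genotypes overlapped.

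The selectins were scarce. Sele (chromosome 1, 164048234 to 164057677) had 30, 17, 15 and 29 counts in WT 1, WT 2, TG 1 and TG 2, or 1.82, 1.09, 1.07 and 1.93 CPM. As with Vcam1 and Icam1, WT 1 and TG 2 lay above WT 2 and TG 1, at a level where counting error is large. Selp (chromosome 1, 164115264 to 164150026), whose protein is stored ready-made in endothelial and platelet granules, had 7, 5, 6 and 6 counts. It fell below the filter on low counts and was not tested.

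The counter-receptors differed more between libraries than the ligands did, Itgam the least of them. Each counter-receptor was high in WT 1 and TG 2 and low in WT 2 and TG 1. Selplg (chromosome 5, 113818536 to 113832644) had 147 counts in WT 1, 36 in WT 2, 26 in TG 1 and 155 in TG 2. Itgal (chromosome 7, 127296260 to 127335138) was at 7.66, 2.24, 2.21 and 8.77 CPM in that order, and Itgam (chromosome 7, 128062640 to 128118491) at 14.5, 7.04, 7.26 and 19.4 CPM. Within each genotype the high library exceeded the low one, so for all 3 genes the WT and TG values overlapped.

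Itga4 (chromosome 2, 79255426 to 79333123), the VLA-4 chain, was at 20.2, 4.86, 3.41 and 20.5 CPM in WT 1, WT 2, TG 1 and TG 2. Itgb2 (chromosome 10, 77530252 to 77565708), the chain that LFA-1 and Mac-1 share, was at 24.9, 7.16, 4.98 and 21.9 CPM. WT 1 and TG 2 were again the high libraries. Coordinates are mm10 positions from GENCODE vM21, and all 10 genes are protein-coding. In bulk tissue, fewer cells of a type and less RNA per cell cannot be told apart. On the opposite strand Itga4 overlaps Cerkl over 8.04% of its exonic length. Cerkl had 7 to 12 counts. Itgam overlaps Gm49368 on its own strand over 68.7%, Icam1 overlaps Gm47079 on the other strand over 11.7% and Vcam1 overlaps Gm43109 on the other strand over 0.688%. These 3 genes are no rows of the count table, so reads from them may be added to the members. For the strand setting of the counting nothing is given in the sources used here.

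**Figure D1:**
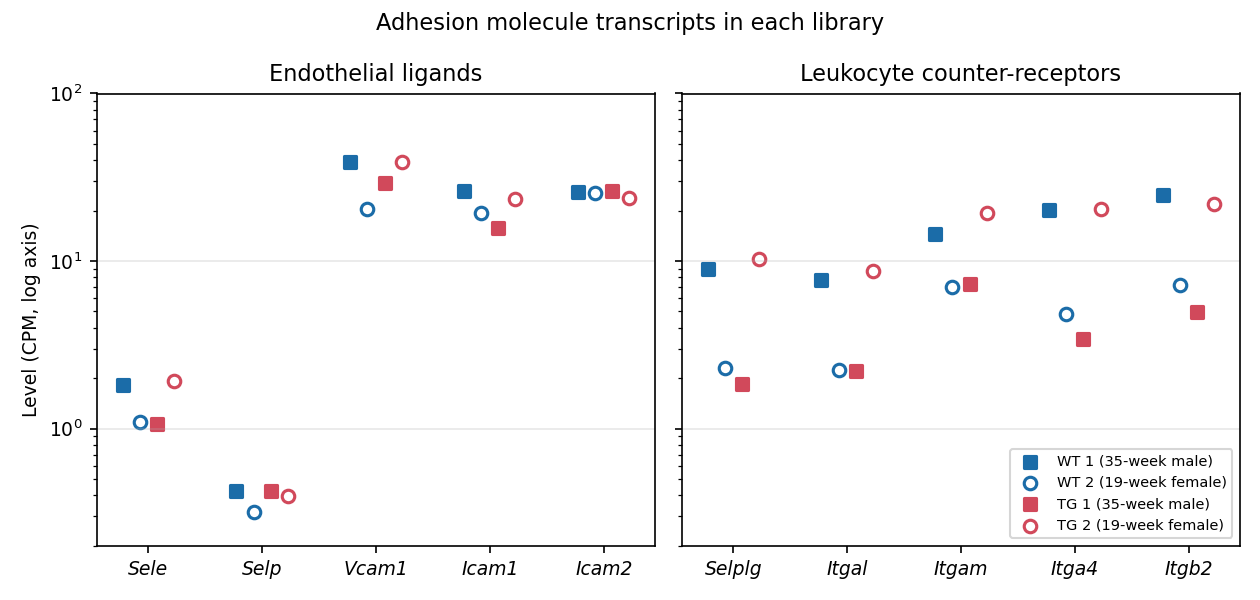
Level in CPM (log axis) of each member in each library, with blue for WT, red for TG, filled squares for 35-week males and open circles for 19-week females, and no error bars because each point is 1 mouse. The 5 counter-receptors on the right split into WT 1 and TG 2 above WT 2 and TG 1, while Icam2 stays between 23.7 and 26.1 CPM.

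Levels of members are set against each other here only per kilobase of exonic length. On that scale the mean over the 4 libraries was, in falling order, 13.3 CPM per kilobase for Icam2, 4.84 for Icam1, 4.83 for Itgb2, 3.60 for Vcam1 and 2.40 for Itgam. It was 1.37 for Selplg, 0.877 for Itga4, 0.794 for Itgal, 0.507 for Sele and 0.0890 for Selp. Icam2, at 12.5 to 13.7, lay above the range of every other member, and Sele, at 0.366 to 0.661, lay above Selp, at 0.0725 to 0.0967. Neighbours in between overlapped over the libraries: Itgb2 spanned 1.63 to 8.15 CPM per kilobase and Icam1 3.59 to 5.98. The summed level of the 5 ligands was 24.7, 20.6, 21.1 and 23.0 CPM per kilobase in WT 1, WT 2, TG 1 and TG 2, and that of the 5 counter-receptors was 15.7, 4.98, 4.09 and 16.3. Counter-receptors thus stood at 0.638 and 0.708 of the ligand level in WT 1 and TG 2, and at 0.241 and 0.194 in WT 2 and TG 1. Icam2 alone made up 13.6, 13.4, 13.7 and 12.5 of the ligand sums in WT 1, WT 2, TG 1 and TG 2. The steadiness of those sums, and the size of the ratios, thus rest largely on this 1 gene.

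Between TG and WT hearts no member passed the test. The 9 tested members were compared by edgeR's quasi-likelihood test in a fit over 14189 genes with Benjamini-Hochberg adjustment, in which 0.00% of genes were called, 99 of them having an unadjusted p below 0.05. Limma-voom called 0 genes too and DESeq2 called 3, none of them a member. Where a log2 value carries a ±, here and below, that is an SE worked back from the quasi-likelihood statistic, which draws on all genes. The log2 difference of TG from WT, with 2 mice each, was 0.19 ± 0.35 for Vcam1, -0.22 ± 0.27 for Icam1, -0.05 ± 0.14 for Icam2 and 0.04 ± 0.52 for Sele. For the counter-receptors it was 0.11 ± 0.97 for Selplg, 0.15 ± 0.85 for Itgal, 0.31 ± 0.58 for Itgam, -0.07 ± 1.00 for Itga4 and -0.25 ± 0.87 for Itgb2. Each adjusted p was 1.00 by edgeR.

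The standard errors show how little this comparison can resolve for the counter-receptors. The mean level of Itgb2 was 16.0 ± 12.5 CPM (SD, n = 2) for WT hearts and 13.4 ± 12.0 for TG hearts, whereas that of Icam2 was 25.7 ± 0.179 and 24.9 ± 1.70. The median of the 9 tested members was 0.04, against -0.01 over all tested genes. WT and TG values overlapped for all 10 members, and they did not overlap for 21.0% of tested genes. For each of the 9 tested members at least 1 of the 4 fits that leave out a library turned the sign, so these values give no direction, and without WT 2 the count of members called was also 0.

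Within the pairs of equal sex and age, the counter-receptors differed strongly and in opposite directions. In the 35-week males the TG to WT ratio of Itga4 was 0.169, with a 95% counting interval of 0.122 to 0.229. In the 19-week females it was 4.22 (3.27 to 5.50). For Itgb2 the ratios were 0.200 (0.153 to 0.259) in males and 3.06 (2.46 to 3.82) in females. Both integrin chains were thus lower in the TG male than in the WT male and higher in the TG female than in the WT female.

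The selectin ligand Selplg had ratios of 0.207 (0.131 to 0.315) in males and 4.47 (3.09 to 6.62) in females, and Itgal had 0.288 (0.188 to 0.429) and 3.92 (2.68 to 5.86). Itgam moved least of the 5, at 0.499 (0.392 to 0.632) and 2.76 (2.21 to 3.46). These intervals are exact binomial intervals of 1 library against 1 and cover counting error only. They say nothing of the spread between mice.

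Among the ligands, Vcam1 had ratios of 0.748 (0.660 to 0.848) in males and 1.89 (1.65 to 2.17) in females, and Icam1 had 0.5999 (0.508 to 0.707) and 1.21 (1.04 to 1.42). The inducible ligands thus had the same pair of directions as the counter-receptors, with ratios closer to 1. Icam2 had ratios of 1.01 (0.876 to 1.16) and 0.927 (0.801 to 1.07), and for Sele and Selp both intervals held 1.

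**Figure D2:**
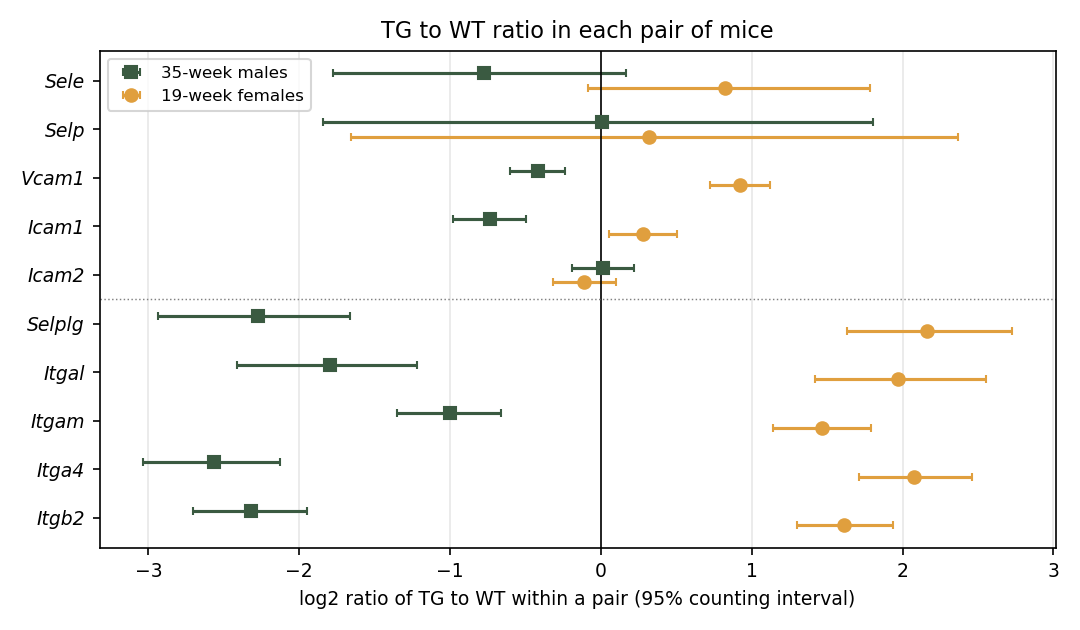
Log2 ratio of TG to WT (x axis) for each member (y axis) in the 35-week male pair (green squares) and the 19-week female pair (orange circles), with bars for the 95% counting interval of 1 library against 1. The 5 counter-receptors under the dotted line lie on opposite sides of 0 in males and females, while both Icam2 intervals hold 0.

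A test of this difference between the pairs called all 5 counter-receptors and none of the 4 tested ligands. Because 4 libraries cannot carry genotype, pair and interaction together and still leave a residual, the interaction was the only term. Differences by genotype and by pair stay in the residual of that fit, so its p-values do not measure spread between like mice. The test is then the same as setting WT 1 and TG 2 against WT 2 and TG 1, and the choice of this test was made with that split known. The coefficient is the log2 ratio of TG to WT in males minus the same in females. By edgeR with Benjamini-Hochberg adjustment over 14189 genes, 2.72% of genes were called, 2.37% with a lower ratio in males and 0.352% with a higher one. Of the 4 tested ligands 3 had an unadjusted p below 0.05 by edgeR, each with a lower ratio in males. Over all tested genes 2304 had such a p, in either direction.

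Coefficients were -4.59 ± 0.42 for Itga4 (adjusted p = 0.0111), -4.40 ± 0.46 for Selplg (adjusted p = 0.0138), -3.88 ± 0.43 for Itgb2 (adjusted p = 0.0150), -3.76 ± 0.44 for Itgal (adjusted p = 0.0178) and -2.49 ± 0.40 for Itgam (adjusted p = 0.0370) by edgeR. The ligands stood at -1.30 ± 0.38 for Vcam1 (adjusted p = 0.173), -1.002 ± 0.33 for Icam1 (adjusted p = 0.217), -1.59 ± 0.63 for Sele (adjusted p = 0.292) and 0.12 ± 0.26 for Icam2 (adjusted p = 0.871). Whether the ligands differ from the counter-receptors was not tested. The median was -3.88 over the 5 counter-receptors and -1.15 over the 4 tested ligands, against 0.01 over all tested genes. In 8 of the 10 members both WT 1 and TG 2 lay above both WT 2 and TG 1, as did 24.6% of tested genes. Both lay below in 0 members and in 22.9% of tested genes.

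These calls rest on WT 1 and TG 2. Without either of them 0 members were called, with coefficients of -4.61 to -2.88 for the counter-receptors without WT 1 and of -4.57 to -2.05 without TG 2. Without TG 1 Vcam1 was called (-1.85, adjusted p = 0.0402 by edgeR) and Itgam was not (adjusted p = 0.0716), and without WT 2 Itgam was not called (adjusted p = 0.0790), while the counter-receptors ranged from -5.15 to -2.45. Across all alternatives the adjusted p ranged from 0.0402 to 0.676 for Vcam1 and from 0.000697 to 0.174 for Itgam. Scaling by library totals alone moved the median coefficient of all genes by -0.35. Relative to the median of all genes under that scaling the 5 counter-receptors lay between -4.60 and -2.50 and Icam2 at 0.11. Itgam also missed the threshold by limma-voom (adjusted p = 0.0534).

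For 35-week males against 19-week females, 0 of 9 tested members were called by edgeR with Benjamini-Hochberg adjustment, where 0.0282% of all tested genes were, and no member had an unadjusted p below 0.05. DESeq2 and limma-voom also called 0 members. Log2 fold changes (males over females) lay between -0.27 ± 0.59 for Itgam and 0.21 ± 0.34 for Vcam1. For the counter-receptors the SE ran from 0.59 for Itgam to 1.01 for Itga4, so this comparison also resolves little for them. Sex and age cannot be told apart in these mice.

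Each side was also set against a marker of the cells that carry it. Vcam1 stood at 20.6 and 19.3 counts per 100 counts of the junction gene Pecam1 in WT 1 and TG 2, against 10.4 in WT 2 and 15.9 in TG 1. Icam1 stood at 13.7 and 11.6 per 100 Pecam1 counts against 9.78 and 8.47. Icam2 stood at 13.6, 13.0, 14.1 and 11.8 in WT 1, WT 2, TG 1 and TG 2, with counting intervals that overlapped. Pecam1 itself was at 190, 198, 185 and 201 CPM. Per 100 counts of Cdh5, however, Icam2 stood at 13.5 (12.1 to 14.9) in WT 1 and 10.2 (9.22 to 11.4) in WT 2, so its steadiness depends on the endothelial gene chosen. The inducible ligands were thus higher in WT 1 and TG 2 per Pecam1 count as well, with intervals of Icam1 that overlapped between TG 2 and WT 2. Vcam1 and Icam1 are also made by other cells of the heart.

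The pan-leukocyte phosphatase Ptprc was at 73.4, 11.6, 9.53 and 60.3 CPM in WT 1, WT 2, TG 1 and TG 2, with a coefficient of -5.31 ± 0.34 (adjusted p = 0.00575 by edgeR). Per 100 Ptprc counts, Itgb2 stood at 33.9 and 36.3 in WT 1 and TG 2 and at 61.5 and 52.2 in WT 2 and TG 1. Itgam stood at 19.8 (17.2 to 22.8) and 32.2 (28.1 to 36.7) against 60.4 (47.3 to 77.0) and 76.1 (58.3 to 99.2), with 95% counting intervals in brackets. Itgam was therefore lower per Ptprc count in the libraries that held more of both genes. The intervals of Itgb2 overlapped between TG 2 (31.9 to 41.3) and TG 1 (38.6 to 70.3). Itgal stood at 10.4 and 14.5 per 100 Ptprc counts against 19.2 and 23.1. For Itgal the interval of TG 2 (12.0 to 17.5) overlapped those of WT 2 (13.0 to 27.7) and TG 1 (15.1 to 34.4). Itga4 stood at 27.6 and 34.0 against 41.8 and 35.8, where only the intervals of WT 1 and WT 2 were apart. Selplg stood at 12.2 (10.2 to 14.5) in WT 1, 19.8 (13.4 to 28.4) in WT 2, 19.4 (12.2 to 29.7) in TG 1 and 17.1 (14.3 to 20.3) in TG 2, with no clear split.

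The balance of the integrin chains also differed. For every 100 Itgb2 counts there were 58.4 Itgam counts in WT 1 and 88.5 in TG 2, against 98.2 in WT 2 and 146 in TG 1. The interval of WT 1 (49.6 to 68.7) lay below the other 3, that of TG 1 (106 to 200) lay above that of TG 2, and that of WT 2 overlapped both of the latter. Itgal, by contrast, stood at 30.8, 31.2, 44.3 and 40.0 per 100 Itgb2 counts in WT 1, WT 2, TG 1 and TG 2, with overlapping counting intervals in all 4. Against the macrophage receptor Csf1r, Itgam stood at 16.2, 17.0 and 14.6 per 100 counts in WT 1, WT 2 and TG 1 and at 28.4 (24.9 to 32.4) in TG 2. Of all 4 libraries TG 2 thus held the most Itgam per Csf1r count.

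Counts of receptors were also set against those of their ligands. Itga4 stood at 51.7 and 52.8 counts per 100 Vcam1 counts in WT 1 and TG 2, at 23.7 in WT 2 and at 11.7 in TG 1. Itgb2 stood at 95.3 and 93.5 counts per 100 Icam1 counts in WT 1 and TG 2, at 37.1 in WT 2 and at 31.8 in TG 1. Both ratios were higher in WT 1 and TG 2, with intervals apart from those of the other libraries. Itgam stood at 55.7 (47.4 to 65.4) per 100 Icam1 counts in WT 1, 36.4 (29.0 to 45.5) in WT 2, 46.4 (36.3 to 58.9) in TG 1 and 82.7 (70.6 to 96.9) in TG 2, so the intervals of WT 1 and TG 1 overlapped. Itgal stood at 29.4 (23.9 to 35.9), 11.6 (7.92 to 16.5), 14.1 (9.35 to 20.6) and 37.4 (30.4 to 45.8) in the same order, again with WT 1 and TG 2 apart from the others. These are ratios of counts, not corrected for length, so they compare libraries and not genes.

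**Figure D3:**
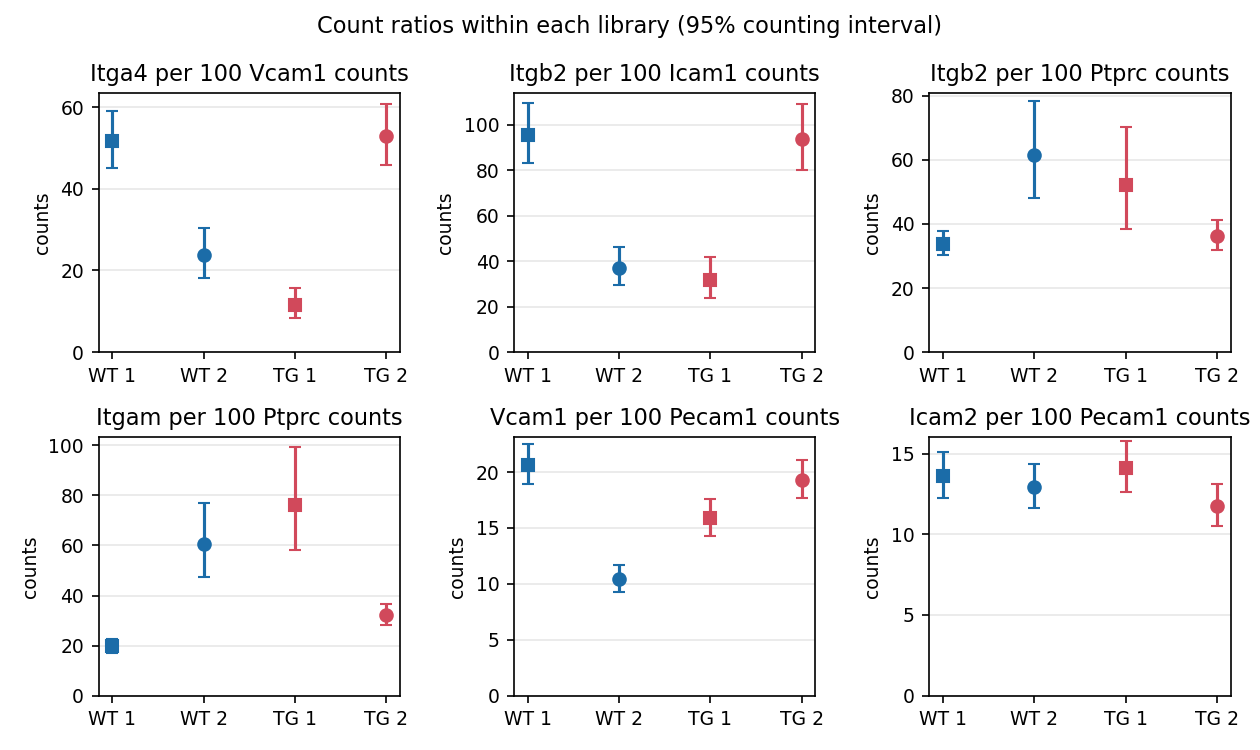
Counts of a member per 100 counts of its partner or of a cell marker (y axis) in each library (x axis), with bars for the 95% counting interval. Itga4 per Vcam1 and Itgb2 per Icam1 are high in WT 1 and TG 2, Itgam per Ptprc is high in WT 2 and TG 1, and Icam2 per Pecam1 spans 11.8 to 14.1.

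Markers of the cells that could carry these molecules were read in the same test, where 2.37% of all tested genes were called with a lower ratio in males. Of 6 pan-leukocyte genes 5 were called in the pair difference, all with a lower ratio in males, and the 6 together reached 220 CPM in WT 1 and 180 in TG 2, but 50.5 in WT 2 and 48.4 in TG 1. For macrophage and monocyte genes the count was 4 of 9, with sums of 656 and 523 against 252 and 260 CPM. For T and NK cell genes it was 6 of 7, and the sums stood at 34.4 (WT 1), 33.5 (TG 2), 1.98 (WT 2) and 0.925 (TG 1) CPM. For B cell genes it was 1 of the 2 tested, and all 5 listed genes summed to 21.4 and 42.0 against 6.08 and 8.54 CPM. Of neutrophil and platelet genes 0 of 2 and 0 of 3 tested were called. All 6 listed neutrophil genes summed to 4.93 and 4.05 against 1.34 and 1.21 CPM. All 6 listed platelet genes summed to 16.2 and 10.8 against 7.87 and 8.54 CPM. No marker in these lists was at 0 in all libraries.

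The 10 endothelial genes summed to 1222 CPM in WT 1 and 1304 in TG 2, below the 1575 of WT 2 and the 1440 of TG 1, whereas Vcam1 and Icam1 had WT 1 and TG 2 above the other libraries. Of the 10 genes 1, Vwf, was called with a higher ratio in males. The 6 cardiomyocyte genes summed to 49203 and 52463 against 59040 and 67283 CPM, with 0 called. Of 5 fibroblast, 4 lymphatic and 1 tested epicardial gene 0 were called. The part of cell make-up in the levels of the members was not tested.

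The wider adhesion cascade was read from 9 lists of 107 genes, of which 94 were tested. In the pair difference 19 of the 94 were called, all with a lower ratio in males, against 2.37% of all tested genes, and the median coefficient was -0.42. Between TG and WT 0 were called, with a median of -0.02. Without WT 1 just 1 of the 19 was called and without TG 2 just 2 were.

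In the list of selectins and ligands 2 of 6 tested genes were called. Spn (CD43, a mucin of leukocytes) was at 15.9, 1.09, 0.640 and 13.9 CPM in WT 1, WT 2, TG 1 and TG 2, and Cd44, the hyaluronan receptor, at 39.3, 19.7, 14.2 and 41.8 CPM. Glycam1 and Madcam1, ligands of lymph node and gut venules, were at 0 counts in all libraries. Of 10 tested genes that build selectin ligand sugars 0 were called, and the gene of highest mean CPM, B4galt1, was at 137, 108, 117 and 151 CPM.

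Among the partner integrins 2 of 12 were called, and both are leukocyte chains. Itgax (CD11c, a chain of dendritic cells and macrophages) had 137, 2, 8 and 76 counts in WT 1, WT 2, TG 1 and TG 2, and Itgb7, the other partner of Itga4, had 87, 11, 12 and 89. Itgb1, the VLA-4 partner that most cells carry, was not called, and per 100 Itgb1 counts there were 3.42 Itga4 counts in WT 1, 0.834 in WT 2, 0.614 in TG 1 and 3.15 in TG 2. In the list of integrin activation 6 of 16 were called. The 4 of smallest p were the scaffold Cytip (122, 13, 7 and 102 counts), the adaptor Fyb (217, 49, 33 and 220), the exchange factor Vav1 (173, 42, 31 and 139) and the adaptor Skap1 (45, 6, 3 and 55).

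The lists of junction and anchoring genes held 1 call and 0 calls. These counts are too small to set against the 2.72% of all tested genes, so nothing is read from them. Of 14 tested genes of junctions and diapedesis 1 was called, Cd226, a receptor of T and NK cells, at 52, 9, 12 and 49 counts. Cdh5, the cadherin of endothelial junctions, was at 192, 250, 231 and 197 CPM (coefficient 0.62 ± 0.22, adjusted p = 0.252 by edgeR), and Pecam1 was at -0.07 ± 0.22 (adjusted p = 0.922 by edgeR). Of 9 genes that anchor ligands to the cytoskeleton 0 were called, and the gene of highest mean CPM, Msn, was at 252, 237, 223 and 269 CPM.

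Of 7 other immunoglobulin-type genes 4 were called. They were the T cell surface genes Cd6 (56, 0, 1 and 44 counts) and Cd2 (47, 2, 5 and 50), the leukocyte gene Cd48 (120, 19, 17 and 98) and 4632428N05Rik (848, 452, 398 and 822), named Vsir in GENCODE. In the endothelial activation list, which holds NF-kappa-B and cytokine receptor genes, 1 of 12 was called, and Tnfrsf1b, a receptor for tumour necrosis factor, was at 25.5, 14.4, 13.8 and 26.4 CPM. Nothing is read from this count of 1 either. Of 8 tested arrest chemokines 3 were called, with 69, 5, 1 and 73 counts for Ccl5, 584, 39, 51 and 246 for Cxcl9 and 487, 138, 144 and 335 for Cxcl16.

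**Figure D4:**
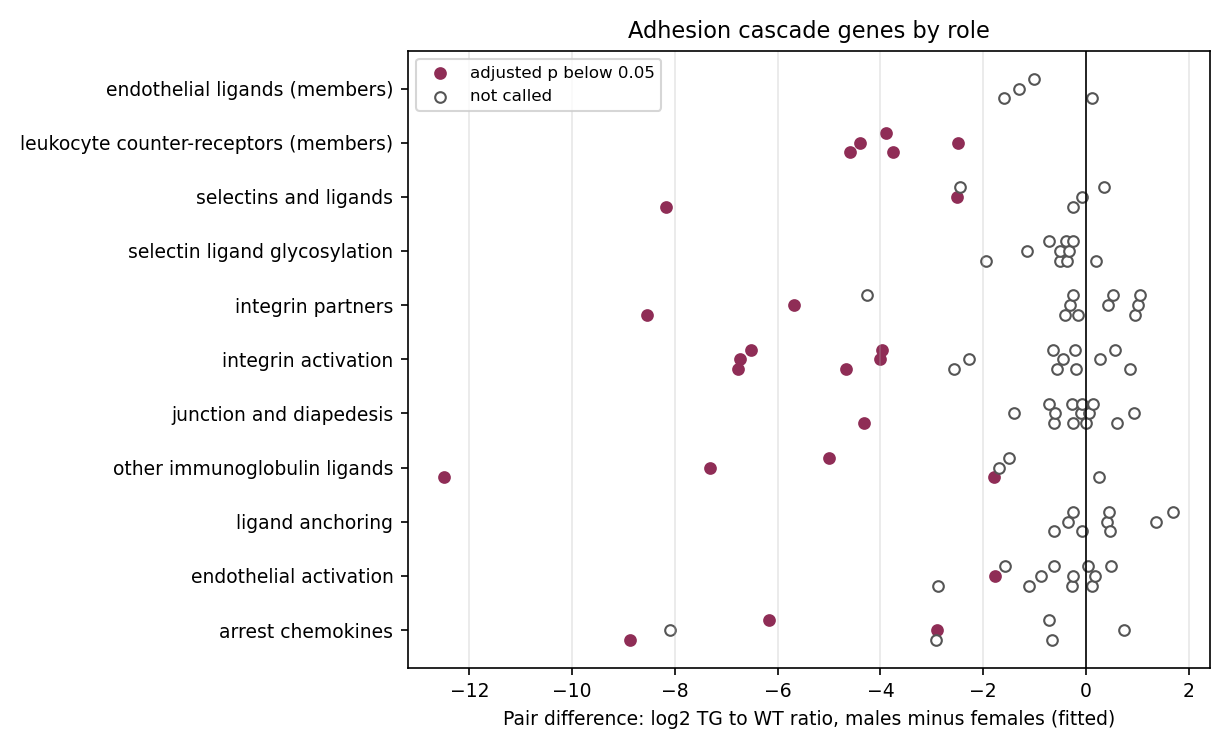
Fitted pair difference (x axis, log2 TG to WT ratio of males minus that of females) of each tested gene in the members and in 9 lists of the adhesion cascade (rows), with filled points for an adjusted p below 0.05 by edgeR. All 5 counter-receptors are filled, 0 of the 4 tested ligands are, and in the 10 tested genes of selectin ligand glycosylation and the 9 of ligand anchoring 0 are filled.

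The genes whose profile over the 4 libraries lay nearest to a member were found by the Euclidean distance between log2 CPM values centred on each gene's mean. Nearest to Vcam1 were Ly6c2 (distance 0.0745), Loxl4 (0.0920) and Mob3b (0.0930), of which Ly6c2 was at 4.26, 2.24, 3.06 and 4.38 CPM in WT 1, WT 2, TG 1 and TG 2. Nearest to Itgb2 were Adam8 (0.101), Fam105a (0.146) and Psd4 (0.146), of which Adam8 was at 3.22, 0.768, 0.498 and 2.66 CPM. With 4 libraries many genes share a profile, and these names carry no test.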

How the data were processed

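RNA of the left ventricle was sequenced from 4 mice, 2 per genotype. The authors deposited raw read counts per Ensembl gene and the same genes as a normalized signal, found here to be those counts over a constant for each library (0.917 to 1.08). Per the submitters' processing notes, STAR 2.3.0 and HTSeq 0.6.1 are named as tools, beside DESeq, CASAVA 1.8.2 and FastQC 0.10.0, and mm10 as the build. The kit was a stranded one for total RNA, per the labels' protocols.

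Tests on the counts used edgeR 4.0.16 under R 4.3.3 (filterByExpr with a minimum count of 10, TMM scaling, quasi-likelihood test, Benjamini-Hochberg threshold 0.05, no block), which was checked on simulated data. The simulated counts gave every gene the same relative spread and held no effect besides the tested one, unlike these data. That check covers the code, not the behaviour of the test on these mice. DESeq2 1.42.0, limma-voom (limma 3.58.1), other scalings and filters, a replicate block and leaving out each library were alternatives. Replicate numbers go with sex and age, but no label says that they mark a shared litter. Positions and exonic lengths came from GENCODE vM21, matched for 99.2% of tested genes.

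The members, lists and tests were chosen with earlier results of these data known. All members were named, with up to 4 called genes of smallest p per list. Also named were the gene of highest mean CPM of a list with none, and Ptprc, Pecam1 and Cdh5. Of the listed cascade genes 2 had no row.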

Additional observations from a re-analysis of the deposited data

Results flagged for a closer look

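All 5 counter-receptors had a TG to WT ratio that differed from the males to the females by the interaction test described above, with log2 coefficients (males minus females) of -4.59 for Itga4, -4.40 for Selplg, -3.88 for Itgb2, -3.76 for Itgal and -2.49 for Itgam. Ptprc differed by -5.31. With 1 mouse per genotype in each pair, a difference between pairs and a difference between single mice cannot be told apart.

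The same test also picked out the named genes Spn (-8.17), Cd44 (-2.51), Itgb7 (-5.68), Cytip (-6.77), Fyb (-4.67), Vav1 (-4.01), Cd226 (-4.33), Cd48 (-5.00), 4632428N05Rik (-1.78), Tnfrsf1b (-1.76), Cxcl16 (-2.89) and Cxcl9 (-6.17). The coefficients of Cd6 (-12.49), Ccl5 (-8.87), Itgax (-8.55), Cd2 (-7.32) and Skap1 (-6.73) rest on libraries with 0 to 8 counts in WT 2 and TG 1. They depend on the prior count of the fit, so they are not read as folds. Counts in WT 2 and TG 1 were also low for Spn (17 and 9), Cytip (13 and 7), Itgb7 (11 and 12) and Cd226 (9 and 12). Their coefficients are not read as folds either.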

How the results depend on the processing

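In the pair difference, 386 genes were called by edgeR, 703 by DESeq2 (485 lower and 218 higher), 908 without a filter, and 40 to 347 when 1 library was left out, while the count of members was 5 in the main analysis, 4 by limma-voom and 0 to 5 when 1 library was left out. The 5 counter-receptors kept their direction in every alternative run. Icam2 turned to -0.23 by library totals alone, because that scaling shifts all genes, and Pecam1 ranged from -0.17 to 0.031 with 1 library left out. For TG over WT, genes called numbered 0 by edgeR, 3 by DESeq2 and 0 to 6 with 1 library left out. With the replicate block 0 genes and 0 members were called, and Selplg turned to -0.026 (-0.040 by limma-voom). Same-numbered libraries deviated from their group means in opposite senses (r = -0.45 across 14189 genes), and a crossed pairing, added after this was seen, also called 0 genes and 0 members. With 1 library left out, log2 fold changes (TG over WT) had these ranges: Vcam1 -0.20 to 0.73, Icam1 -0.54 to 0.048, Icam2 -0.12 to 0.022, Sele -0.45 to 0.46, Selplg -1.60 to 1.40, Itgal -1.17 to 1.29, Itgam -0.57 to 0.92, Itga4 -1.88 to 1.30, Itgb2 -1.69 to 0.91. For males over females, genes called numbered 4 by edgeR, 7 without a filter, 34 by DESeq2, 0 with the replicate block and 0 to 7 with 1 library left out. Itgb2 turned to -0.14 with the replicate block and -0.11 by limma-voom, and ranges with 1 library left out were these: Vcam1 -0.18 to 0.74, Icam1 -0.45 to 0.28, Sele -0.49 to 0.41, Selplg -1.76 to 1.23, Itgal -1.31 to 1.14, Itgam -0.86 to 0.63, Itga4 -1.89 to 1.29, Itgb2 -1.54 to 1.06. The cause of these changes was not tested. All 20 ratios within pairs stayed inside their counting intervals with a prior count of 0.5 or 2. Leaving out a library leaves 1 mouse in a group, which is then assumed to vary like the other group. Depth limits Sele and Selp, with 5 to 30 counts per library.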
